A study of Mus musculus with 6 samples.

Results

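The genes described here are 7 receptors through which growth factors act on cells of the myeloid lineage, measured in macrophage subsets sorted from the spleen of normal mice and of mice with T cell acute lymphoblastic leukemia (T-ALL). They were chosen by name as the rows of the 6 deposited expression files whose gene identifier maps to Csf1r, Csf2ra, Csf2rb, Csf2rb2, Csf3r, Il3ra or Kit. All 7 were found, out of 16058 identifiers, and all 7 were listed in every file. RNA sequencing was done on 1 library for each of 3 subsets in each of 2 states, and the values are FPKM (fragments scaled to transcript length and to library size), which can be compared between genes because they are per length. The 3 subsets were defined by surface Ly6c and F4/80, as Ly6chiF4/80lo, Ly6cloF4/80lo and Ly6cloF4/80hi. The mice were C57BL/6 and 6 to 8 weeks old. The T-ALL libraries came from day 15 after unirradiated mice received 1000000 GFP+ leukemia cells each, a model in which the recipients survived 35 to 40 days. The normal libraries are labelled as normal spleen, and the protocol places the comparison time at day 0. The labels name neither the oncogene that drives the leukemia nor the number of mice per library, and it is not stated whether different mice supplied the 3 gates. The p-values below therefore do not measure the spread between mice. With 1 library per subset and state, they rest on how unevenly a difference held over the subsets or the states. That spread was estimated partly from the gene itself and partly from the other genes, through a prior. A response that truly differs between subsets cannot be told apart from noise in these p-values.

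These receptors belong to 2 structural families. Csf1r, the receptor of M-CSF (Csf1) and IL-34, and Kit, the receptor of stem cell factor (Kitl), are receptor tyrosine kinases. Csf2ra, the GM-CSF-binding alpha chain, and Il3ra, the IL-3-binding alpha chain, are cytokine receptors that signal only together with a beta chain, either the common chain Csf2rb, which also serves the IL-5 receptor, or the chain Csf2rb2, which mice have in addition and which serves IL-3 alone. Csf3r, the G-CSF receptor, forms homodimers. Csf1r signalling keeps most tissue macrophages alive, Csf3r is best known from neutrophils and their precursors, and Kit marks haematopoietic progenitors and mast cells.

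The 2 beta chains are near copies of each other, which bears on every value given for them. In the GENCODE transcripts of GRCm38.p6 the coding sequence of Csf2rb is 2688 bases long and that of Csf2rb2 is 2634 bases long, and 2503 of 2628 aligned positions (95.2%) are identical. A stretch of 242 bases is shared without a difference, and 26.0% of all 50-base windows of Csf2rb occur unchanged in Csf2rb2. The first sequence below is a 120-base window that is identical in the 2 genes (coding positions 2083 to 2202 in both), where a read cannot be assigned to either gene. The next 2 lines show the 120-base window in which they differ most, with the 22 differing bases in capitals (coding positions 309 to 428 of Csf2rb and 312 to 431 of Csf2rb2). Each line runs 5′ to 3′.
Csf2rb and Csf2rb2: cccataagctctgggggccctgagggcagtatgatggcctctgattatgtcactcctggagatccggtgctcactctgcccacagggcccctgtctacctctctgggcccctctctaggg
Csf2rb: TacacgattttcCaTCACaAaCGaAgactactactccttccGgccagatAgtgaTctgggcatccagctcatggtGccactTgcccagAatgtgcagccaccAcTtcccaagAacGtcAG
Csf2rb2: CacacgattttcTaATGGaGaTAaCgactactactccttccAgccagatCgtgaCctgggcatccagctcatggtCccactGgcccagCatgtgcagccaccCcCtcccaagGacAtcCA
How the deposited values divide reads of the shared stretches between the 2 genes was not tested, so their separate levels, and any difference between them, are uncertain.

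The promoters of the receptors were examined for a motif because Csf2ra and Csf2rb2 were the 2 receptors that fell in T-ALL, as described further on. RefSeq promoter windows (GRCm38.p6, 250 bases before to 50 bases after the start) were at hand for Csf2ra, Csf2rb2, Csf3r, Il3ra and Kit. The motif GAGGAA, the core sequence bound by PU.1, the myeloid transcription factor encoded by Spi1, was searched on both strands, so that it also appears as TTCCTC. It occurs in 4 of the 5 windows, with 2 copies in Csf2ra, 2 in Csf2rb2, 1 in Csf3r, 1 in Kit and 0 in Il3ra. Of all 32851 promoter windows of this length, 28.3% hold it. The sequence AGATAA, a form of the GATA motif, was also searched on both strands. It is in none of the 5 windows and in 11.2% of all windows. Other forms of the GATA motif were not counted, among them TGATAA, which the Csf2rb2 window below holds as TTATCA. Both windows below are written 5′ to 3′ on the gene's own strand, with GAGGAA or TTCCTC in capitals.
Csf2ra, chr19:61228369-61228668, minus strand: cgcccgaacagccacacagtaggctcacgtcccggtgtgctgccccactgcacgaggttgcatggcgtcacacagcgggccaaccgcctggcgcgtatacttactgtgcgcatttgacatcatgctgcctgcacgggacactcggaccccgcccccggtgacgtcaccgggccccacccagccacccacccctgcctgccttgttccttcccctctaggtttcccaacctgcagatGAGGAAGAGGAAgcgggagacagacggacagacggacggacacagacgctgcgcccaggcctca
Csf2rb2, chr15:78305672-78305971, minus strand: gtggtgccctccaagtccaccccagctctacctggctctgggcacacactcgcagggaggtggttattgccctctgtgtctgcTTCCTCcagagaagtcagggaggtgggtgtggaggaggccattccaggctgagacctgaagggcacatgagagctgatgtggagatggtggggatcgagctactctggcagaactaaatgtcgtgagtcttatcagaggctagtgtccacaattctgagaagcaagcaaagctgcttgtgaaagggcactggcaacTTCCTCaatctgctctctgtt
In the Csf2ra window the 2 copies lie directly side by side, while in the Csf2rb2 window both copies are on the opposite strand and far apart. A match describes the letters only.

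The estimated depth was 6770000 to 8830000 fragments per library, read from the step size of low FPKM values. Library sums were similar, with median-ratio scaling factors between 0.895 and 1.08. The gates matched their defining transcripts, since Adgre1 (F4/80) was at 529 and 234 FPKM in the Ly6cloF4/80hi libraries (normal, then T-ALL) and at 47.3 to 86.7 in the other 4, and Ly6c2 was at 482 and 1405 FPKM in the Ly6chiF4/80lo libraries and at 11.8 to 21.4 in the other 4. Genes of other cells were present in all sorts. The B cell gene Cd79a was at 450 to 1167 FPKM in the 6 libraries, the summed level of 10 neutrophil genes was 13015 and 43513 FPKM in the Ly6chiF4/80lo libraries and 109 to 378 FPKM in the others, and the haemoglobin gene Hba-a1 reached 18610 FPKM in T-ALL Ly6cloF4/80hi. Of 7 T cell and T-ALL genes tested, 5 were higher and 2 lower in T-ALL than in normal Ly6cloF4/80hi (median 0.81, log2 scale). In Ly6chiF4/80lo and in Ly6cloF4/80lo 1 was higher and 6 lower (medians -0.55 and -0.42), from 1 library per state. The part of T cells or leukemia cells in the receptor values was not tested. In sorted bulk RNA, a lower value can mean fewer cells that express a gene or less RNA per cell, and these cannot be told apart. Differences below were fitted with limma on log2(FPKM + 1) over all 6 libraries, with subset and state in the model, for 11616 genes, and a Benjamini-Hochberg adjusted p under 0.05 passed.

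Csf1r was by far the most abundant receptor in every library. It stood at 673 FPKM in normal Ly6chiF4/80lo, 218 in normal Ly6cloF4/80lo and 1488 in normal Ly6cloF4/80hi, and at 333, 256 and 574 FPKM in the same subsets of T-ALL mice. In normal Ly6cloF4/80hi it ranked 32 among all named genes. It made up 47.1% to 87.4% of the summed FPKM of the 7 receptors, lowest in normal Ly6cloF4/80lo and highest in normal Ly6cloF4/80hi. That sum was 1096, 463 and 1703 FPKM in the normal subsets and 561, 449 and 704 FPKM in the T-ALL subsets, in the order Ly6chiF4/80lo, Ly6cloF4/80lo and Ly6cloF4/80hi. So the receptor pool was dominated by Csf1r in the F4/80hi gate and was most mixed in the Ly6cloF4/80lo gate, where Kit added 10.5% of the sum in normal and 9.66% in T-ALL spleen against 0.711% to 2.69% in the other 4 libraries.

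**Figure D1:**
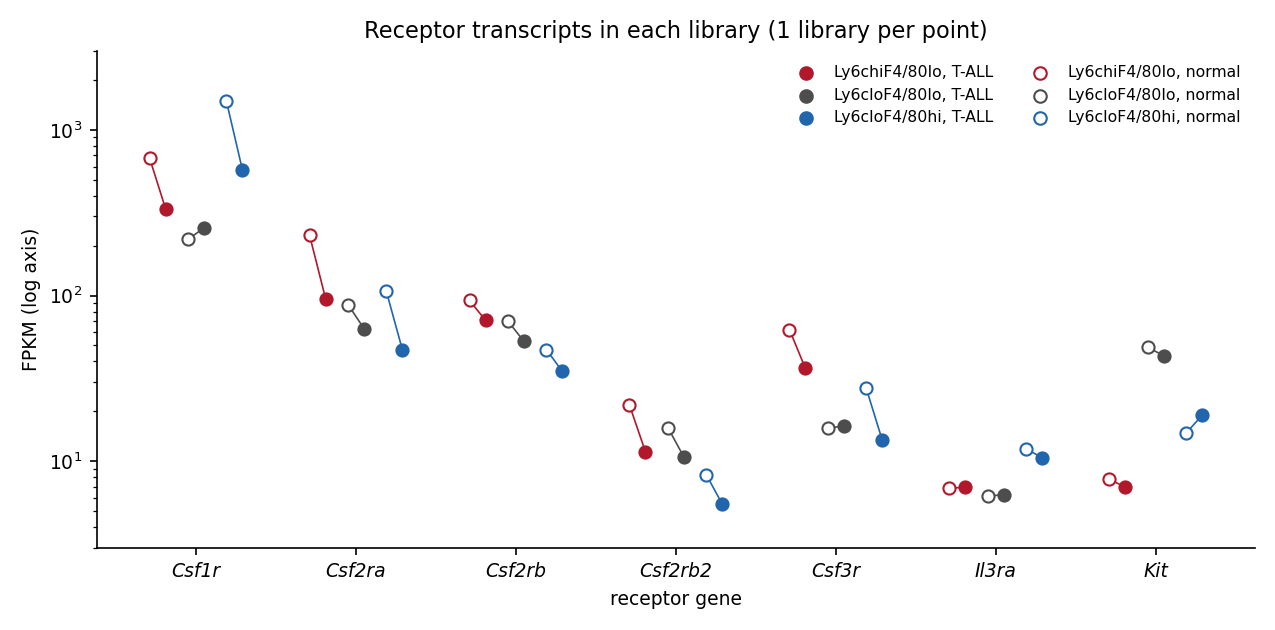
FPKM (log axis) of each receptor gene in each library, 1 library per point, open for normal and filled for T-ALL and joined within a subset. Csf1r ran from 218 to 1488 FPKM, Csf2ra from 47.1 to 231, and Kit was highest in both Ly6cloF4/80lo libraries (48.6 and 43.4).

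The first question was how the receptors differ between T-ALL and normal spleen. The GM-CSF receptor alpha chain Csf2ra and the beta chain Csf2rb2 were lower in T-ALL, while no receptor rose. Kit and Il3ra stood near their normal values. The count was 2 of 7 lower and 0 of 7 higher, where 3.94% of all tested genes passed as lower and 8.20% as higher. At an unadjusted p under 0.05, 4 of 7 were lower and 0 higher. The median difference over the 7 was -0.57 on the log2 scale, against -0.03 over all tested genes. Before pairing by subset, no receptor had all its T-ALL values on one side of its normal values (0 of 7 higher and 0 of 7 lower), as 13.8% of all genes had upwards and 10.9% downwards.

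Csf2ra was at 231, 88.2 and 106 FPKM in normal Ly6chiF4/80lo, Ly6cloF4/80lo and Ly6cloF4/80hi, and at 95.7, 63.2 and 47.1 FPKM in T-ALL. Each T-ALL library was below the normal library of its subset, but the 2 sets of values overlapped, since T-ALL Ly6chiF4/80lo was above normal Ly6cloF4/80lo. The difference was -0.96 ± 0.19 (SE, log2 scale, 3 libraries per state, limma adjusted p = 0.0326). It was negative in all 12 alternative settings, between -1.21 and -0.81, with adjusted p from 0.0194 to 0.126. The call was lost without any one of the 2 Ly6chiF4/80lo or the 2 Ly6cloF4/80hi libraries (adjusted p 0.0744 to 0.126) and with no filter on low genes (0.0732).

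The beta chains were also below normal in each T-ALL library of the same subset, at lower levels. Csf2rb was at 93.3, 70.1 and 47.2 FPKM in the normal subsets (same order) and at 70.8, 52.9 and 34.9 FPKM in T-ALL. The 3 within-subset differences were almost the same size, at -0.39, -0.40 and -0.43. The SE of the fit also takes in the spread of other genes, through the prior. Before pairing by subset, the levels overlapped between the states, which the fit does not use. The fitted difference of -0.41 ± 0.13 (95% interval -0.72 to -0.09) did not pass (limma adjusted p = 0.0841), and it passed in 1 of 12 alternatives, quantile normalization (-0.52, adjusted p = 0.0497, where the 12 ranged up to 0.253).

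Csf2rb2 was at 21.8, 16.0 and 8.29 FPKM in the normal subsets and at 11.4, 10.6 and 5.51 FPKM in T-ALL. Every T-ALL library was lower than its normal partner, with overlap across subsets. It fell by 0.65 ± 0.15 (SE, log2 scale, limma adjusted p = 0.0441), and only 4 of 12 alternatives kept the call (adjusted p 0.0386 to 0.124). Leaving out any 1 of the 6 libraries ended it (0.0950 to 0.124), as did dropping the filter, or the trended and robust prior together. The ratio of Csf2rb2 to Csf2rb was 0.234, 0.228 and 0.176 in the normal subsets and 0.161, 0.201 and 0.158 in T-ALL. Given the shared sequence shown above, whether this ratio differs between the states was not tested.

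Csf1r and Csf3r split by subset. Csf1r was 1.01 lower on the log2 scale in T-ALL than in normal Ly6chiF4/80lo and 1.37 lower in Ly6cloF4/80hi, but 0.23 higher in Ly6cloF4/80lo. The fit over subsets gave -0.72 ± 0.33 (95% interval -1.51 to 0.08, limma adjusted p = 0.174), which did not pass. Without either Ly6cloF4/80lo library, which leaves the comparison to the other 2 subsets, it was -1.19 and passed (adjusted p = 0.0229 without the normal and 0.0188 without the T-ALL library, where the 12 alternatives ranged up to 0.559).

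Csf3r was at 62.2, 15.8 and 27.6 FPKM in the normal subsets and at 36.3, 16.4 and 13.4 FPKM in T-ALL. It was lower in T-ALL Ly6chiF4/80lo and Ly6cloF4/80hi than in their normal partners and 0.05 higher on the log2 scale in T-ALL Ly6cloF4/80lo. The fit gave -0.57 ± 0.22 (95% interval -1.09 to -0.04, limma adjusted p = 0.125). It passed in 1 of 12 alternatives, without T-ALL Ly6cloF4/80lo (-0.87, adjusted p = 0.0459, range over the 12 up to 0.410).

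Il3ra and Kit showed no difference past the threshold. Il3ra was at 6.85, 6.18 and 11.9 FPKM in the normal subsets and at 6.98, 6.26 and 10.5 FPKM in T-ALL, and the counting error alone of these values was 8.30% to 11.6%. Its fitted difference was -0.04 ± 0.15 (95% interval -0.39 to 0.31, limma adjusted p = 0.865). Kit was at 7.79, 48.6 and 14.8 FPKM in the normal subsets and at 6.96, 43.4 and 18.9 FPKM in T-ALL. Its fitted difference was 0.01 ± 0.16 (95% interval -0.37 to 0.39, limma adjusted p = 0.964), and its sign changed under median-ratio and quantile scaling and without either Ly6cloF4/80hi library.

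**Figure D2:**
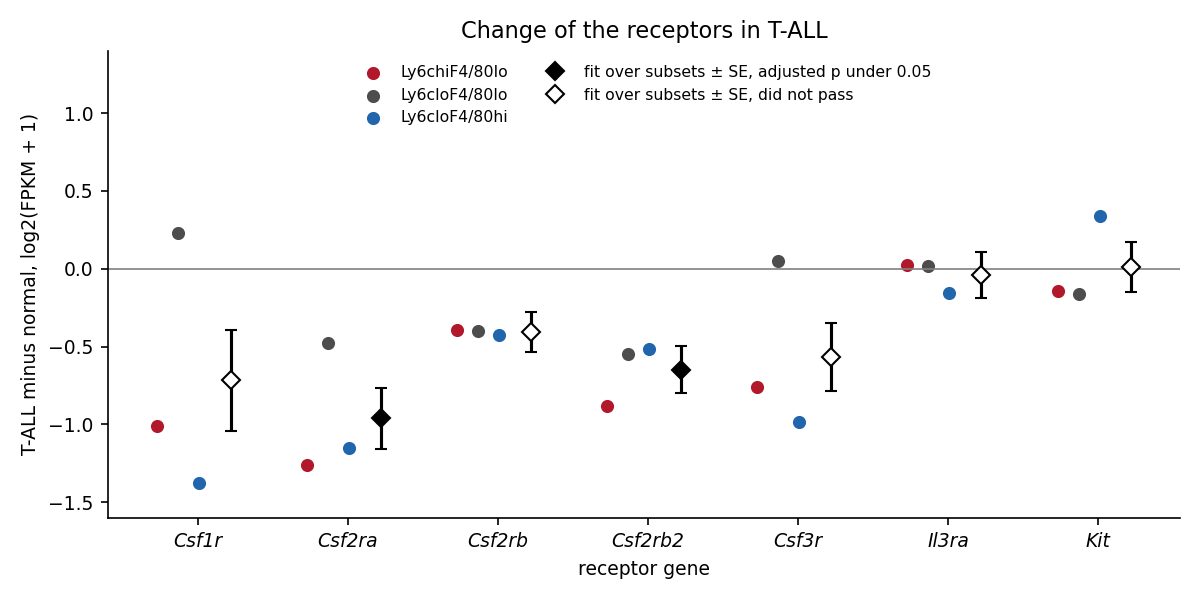
T-ALL minus normal on the log2(FPKM + 1) scale for each receptor gene, as 1 coloured point per subset and a diamond with SE for the limma fit over the 3 subsets, filled where the adjusted p was under 0.05. Csf2ra (-0.96) and Csf2rb2 (-0.65) are filled, the 3 points of Csf2rb nearly coincide (-0.39 to -0.43), and the Ly6cloF4/80lo points of Csf1r (0.23) and Csf3r (0.05) lie above 0.

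Within a subset there was 1 library per state, so those differences have no replicate check. Taking 2-fold on the log2(FPKM + 1) scale as the mark, Csf1r and Csf2ra were past it downwards in Ly6chiF4/80lo (2 of 7, with 4.46% of all genes of at least 5 FPKM there), none was in Ly6cloF4/80lo (1.52% of all genes), and Csf1r and Csf2ra were again in Ly6cloF4/80hi (6.54% of all genes). Csf2ra differed by -1.26, -0.48 and -1.15 in the 3 subsets. No receptor was past 2-fold upwards in any subset, where 7.51%, 5.69% and 10.8% of all genes were. In Ly6chiF4/80lo the Csf1r value of -1.01 sits at the mark, and after median-ratio rescaling 1 receptor, not 2, was past it. In Ly6cloF4/80hi Csf3r, at -0.99, lay just short of the mark, and 3 receptors were past it with a pseudocount of 0.1 (Csf3r at -1.03) and under median-ratio (-1.04) and quantile scaling (-1.07).

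Marker genes of macrophages and of erythroid precursors also differed between the states. Of 8 macrophage genes 4 fell and 0 rose in T-ALL (median -0.96), with summed levels of 2535 to 12642 FPKM in normal and 2017 to 6209 FPKM in T-ALL libraries. Over all tested genes 3.94% passed as lower and 8.20% as higher. Lyz2, which did not pass, made up most of the macrophage sum in the F4/80lo libraries (12010 FPKM in normal Ly6chiF4/80lo). All 6 red pulp macrophage genes fell (median -1.48), from 356 to 7798 FPKM summed in normal to 151 to 2246 FPKM in T-ALL libraries. Axl, a receptor tyrosine kinase of macrophages, was at 30.2, 21.0 and 557 FPKM in the normal subsets and 9.94, 6.15 and 158 in T-ALL. Of 10 erythroid precursor genes 5 rose and 0 fell, with summed levels of 388 to 2560 FPKM in normal and 451 to 20057 FPKM in T-ALL libraries. Most of each sum was Hba-a1, which did not pass, at 18610 FPKM in T-ALL Ly6cloF4/80hi. In Ly6chiF4/80lo Hba-a1 was at 461 FPKM in normal and 399 in T-ALL. The median difference of the 10 genes was 0.38 within Ly6chiF4/80lo, 2.82 within Ly6cloF4/80lo and 3.28 within Ly6cloF4/80hi, from 1 library per state. Leaving out 1 library in turn gave 0 to 6 macrophage and 4 to 5 red pulp genes lower and 0 to 10 erythroid genes higher. None of these markers was at 0 in any library, and their part in the lower values of Csf2ra and Csf2rb2 was not tested.

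Neutrophil and progenitor genes were set beside Csf3r and Kit. In Ly6chiF4/80lo, S100a8, an abundant neutrophil calcium-binding protein, was at 5836 FPKM in normal and 21584 FPKM in T-ALL, and Camp, a granule peptide, at 1339 and 3714 FPKM, whereas Csf3r was at 62.2 and 36.3 FPKM in the same 2 libraries. Over the 3 subsets the 10 neutrophil genes gave 0 calls in either direction in T-ALL by limma (median -0.14, also 0 at an unadjusted p under 0.05). That fit averages over subsets, which went different ways. In Ly6chiF4/80lo 10 of 10 were higher in T-ALL (median 1.68). In Ly6cloF4/80lo 8 were lower and 2 higher (median -1.69), and in Ly6cloF4/80hi also 8 and 2 (-0.55), with 1 library per state. All 5 granulocyte-monocyte progenitor genes tested rose in T-ALL (median 2.54), among them Mpo, the azurophil granule peroxidase, from 101, 11.96 and 5.22 to 745, 149 and 32.6 FPKM. Of 7 basophil and mast cell genes tested 3 rose and 0 fell, among them Mcpt8, the basophil protease, from 2.79, 7.43 and 5.77 to 8.79, 106 and 39.6 FPKM. Over all tested genes 8.20% passed as higher and 3.94% as lower. With 1 library left out in turn, 5 progenitor and 0 to 5 basophil and mast cell genes rose, and Mcpt8 lost its call without either Ly6cloF4/80hi library. The stem and progenitor gene Cd34 rose by 1.94 ± 0.24 (limma adjusted p = 0.0112), from 1.26, 1.65 and 0.48 to 9.63, 11.7 and 2.73 FPKM. Kit, which such progenitors are known to carry, gave no call beside them.

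The second question was how the subsets differ. Against Ly6chiF4/80lo, the Ly6cloF4/80hi subset had less of both beta chains, of Csf2ra and of Csf3r, and more Kit, and so 5 of 7 receptors passed (4 lower, 1 higher), where 5.68% of all tested genes passed as lower and 7.10% as higher. The median over the 7 was -0.98 against 0.12 over all genes. The 2 pairs of libraries did not overlap for 3 receptors on the lower side (16.3% of all genes) and for 2, Kit and Il3ra, on the higher side (27.1%). Csf2rb differed by -0.98 ± 0.16 (SE, log2 scale, limma adjusted p = 0.0144), with both Ly6cloF4/80hi libraries (47.2 and 34.9 FPKM) below both Ly6chiF4/80lo libraries (93.3 and 70.8). Csf2rb2 differed by -1.11 ± 0.18 (adjusted p = 0.0156), again without overlap (8.29 and 5.51 against 21.8 and 11.4 FPKM). The Csf2rb call was lost without either Ly6cloF4/80hi library (adjusted p = 0.0692 without the normal and 0.0599 without the T-ALL one, with a lowest value over 13 alternatives of 0.0114). The Csf2rb2 call was lost without normal Ly6chiF4/80lo (0.0729) or normal Ly6cloF4/80hi (0.0834, with a lowest value of 0.0112).

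Csf3r differed by -1.26 ± 0.27 (limma adjusted p = 0.0324), from 62.2 and 36.3 FPKM in the Ly6chiF4/80lo libraries to 27.6 and 13.4 in the Ly6cloF4/80hi libraries, without overlap. Beside it, 7 of 10 neutrophil genes were lower in Ly6cloF4/80hi and 0 higher (median -5.61), with summed levels of 329 and 206 against 13015 and 43513 FPKM. Of these, Ly6g and Mmp8 passed the filter on low values only with the Ly6chiF4/80lo libraries. Csf2ra differed by -1.06 ± 0.24 (limma adjusted p = 0.0377), but its subsets overlapped, since normal Ly6cloF4/80hi (106 FPKM) was above T-ALL Ly6chiF4/80lo (95.7). Csf2ra and Csf3r each lost the call without any one of the 4 libraries compared and with no filter, over adjusted p of 0.0183 to 0.165 and 0.00956 to 0.148.

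Kit was higher in Ly6cloF4/80hi, at 14.8 and 18.9 FPKM against 7.79 and 6.96 (1.08 ± 0.19, limma adjusted p = 0.0196), and this call was lost without either T-ALL library of the pair (adjusted p = 0.0816 and 0.0860, with a lowest value over the 13 alternatives of 0.0159). Csf1r and Il3ra were not called. Csf1r differed by 0.96 ± 0.40 (limma adjusted p = 0.174), with T-ALL Ly6cloF4/80hi below normal Ly6chiF4/80lo, and in a fit of the 4 libraries alone, or without either Ly6cloF4/80lo library, the same difference passed (adjusted p = 0.0271 in the first, range over 13 alternatives 0.0241 to 0.633). Il3ra stood above both Ly6chiF4/80lo libraries in both Ly6cloF4/80hi libraries, with a difference of 0.62 ± 0.18 that missed the threshold (limma adjusted p = 0.0737).

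The red pulp macrophage genes all separated the same 2 subsets (6 of 6 higher in Ly6cloF4/80hi, median 4.01), and of 8 macrophage genes 6 were higher there and 1 lower. Over all tested genes 7.10% passed as higher and 5.68% as lower. C1qa, a complement component, was at 2567 and 1156 FPKM against 78.2 and 45.3, and the lower one, the lysozyme gene Lyz2, at 670 and 744 against 12010 and 5901. The erythroid precursor genes were higher too (6 of 10, 0 lower), among them Klf1, an erythroid transcription factor, at 10.8 and 136 FPKM against 1.51 and 3.86. Epor, the erythropoietin receptor, which was counted among the related receptors, was at 39.1 and 45.7 FPKM against 1.48 and 1.49 and lost its call without normal Ly6cloF4/80hi. With 1 library left out in turn, 0 to 10 erythroid genes were higher. The part of these cells in the receptor values was not tested.

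**Figure D3:**
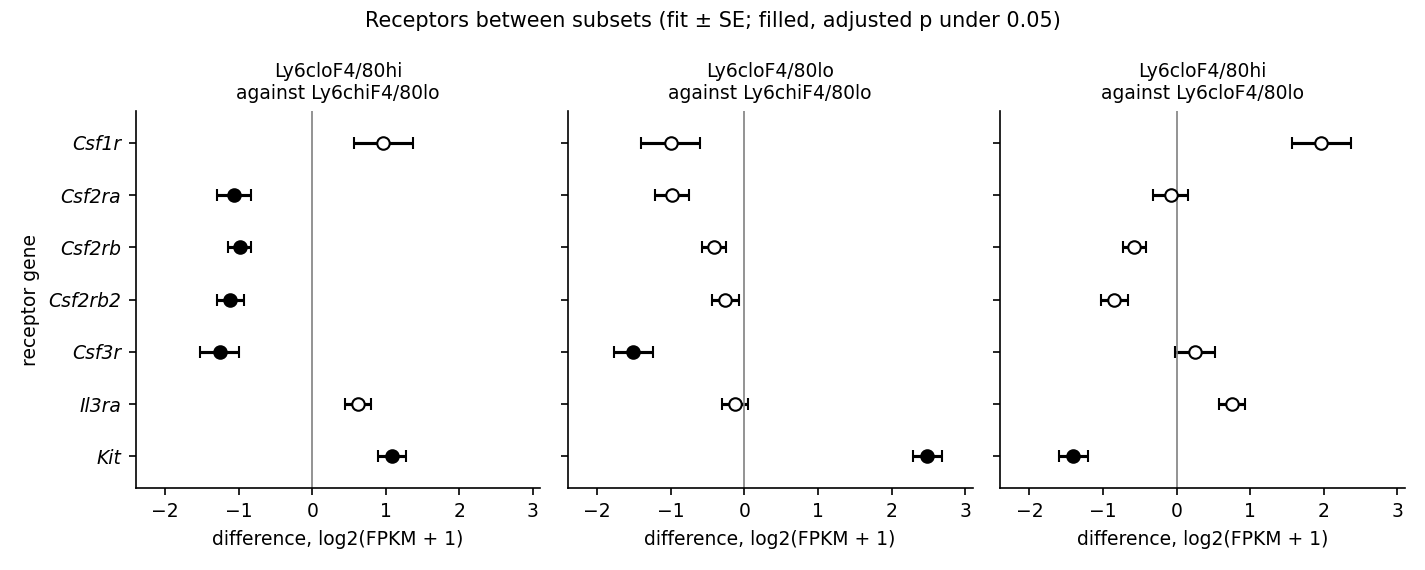
Differences between subsets on the log2(FPKM + 1) scale with SE, from the limma fit over 6 libraries, for each receptor gene, filled where the adjusted p was under 0.05. Kit differs in all 3 panels (1.08, 2.49 and -1.40), and Csf3r is lower than in Ly6chiF4/80lo in both Ly6clo subsets (-1.26 and -1.51).

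The Ly6cloF4/80lo subset was set apart by Kit. Kit was at 48.6 and 43.4 FPKM there (normal, then T-ALL) and at 7.79 and 6.96 FPKM in Ly6chiF4/80lo, a difference of 2.49 ± 0.19 (limma adjusted p = 0.00673) that passed in all 13 alternatives (2.29 to 2.62, adjusted p 0.00197 to 0.0357). It was also the one receptor that differed between the 2 Ly6clo subsets, lower in Ly6cloF4/80hi by a log2 difference of -1.40 ± 0.19 (limma adjusted p = 0.0181), a call lost without either normal Ly6clo library (adjusted p = 0.159 and 0.108) and with no filter (0.0540). In the first of these comparisons 2 of 7 receptors passed, where 2.68% of all genes passed as higher and 2.05% as lower, and in the second 1 of 7, where 2.66% passed as higher and 0.904% as lower. Values without overlap were found in the first for 5 of 7 receptors downwards (Csf1r, Csf2ra, Csf2rb, Csf3r and Il3ra, with 13% of all genes) and 1 upwards (Kit, 35.1%), and in the second for 3 downwards (Csf2rb, Csf2rb2 and Kit, 26.1%) and 2 upwards (Csf1r and Il3ra, 13.5%). In the first, the Il3ra values lay close together, at 6.18 and 6.26 against 6.85 and 6.98 FPKM. Their counting error was 11.0% to 11.6%, and the fitted difference of -0.13 did not pass (limma adjusted p = 0.658). These 3 subset comparisons share libraries and are not independent.

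Csf3r was the other receptor to pass between Ly6cloF4/80lo and Ly6chiF4/80lo, at 15.8 and 16.4 FPKM against 62.2 and 36.3 (-1.51 ± 0.27, limma adjusted p = 0.0371). The 4 values did not overlap. The call was lost in 5 of 13 alternatives, without either Ly6chiF4/80lo library, without normal Ly6cloF4/80lo, with no filter and without the trended and robust prior (adjusted p over the 13 from 0.0243 to 0.180). The neutrophil genes were again lower beside it (7 of 10, 0 higher), at 378 and 109 FPKM summed in Ly6cloF4/80lo, and 1 to 7 of them were lower with 1 library left out in turn. Over all tested genes 2.05% passed as lower. Of the 7 neutrophil genes called lower, Ly6g and Mmp8 passed the filter on low values only with the Ly6chiF4/80lo libraries, where they are high. Csf1r was lowest in Ly6cloF4/80lo, but its differences of -1.0 ± 0.40 from Ly6chiF4/80lo and 1.96 ± 0.40 for Ly6cloF4/80hi over Ly6cloF4/80lo did not pass (limma adjusted p = 0.183 and 0.0561). Without T-ALL Ly6cloF4/80lo they were -1.71 and 2.67 and passed (0.0300 and 0.00313), and the second also passed without T-ALL Ly6cloF4/80hi (2.46, 0.0495).

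Genes of dendritic cells and B cells differed in the same comparison as Kit. Of 8 conventional dendritic cell genes 4 were higher in Ly6cloF4/80lo than in Ly6chiF4/80lo and 1 lower, where 2.68% and 2.05% of all genes were. Over all 8, 6 differences were positive and 2 negative. The lower one, Clec10a, was at 5.71 and 1.69 FPKM against 34.3 and 7.86. Zbtb46, the transcription factor of that lineage, was at 40.6 and 23.4 FPKM against 9.56 and 4.66, and Ccr7, the lymph-node homing receptor, at 312 and 181 against 70.8 and 33.1. Flt3, a receptor tyrosine kinase related to Kit and Csf1r, was at 86.5 and 46.1 FPKM against 40.9 and 12.5 (1.44 ± 0.25, limma adjusted p = 0.0349), a call lost in 5 of 13 alternatives, among them without either Ly6cloF4/80lo library or T-ALL Ly6chiF4/80lo (adjusted p up to 0.150). Of 6 B cell genes 3 were higher and 0 lower, with summed levels of 3146 and 2189 FPKM in Ly6cloF4/80lo against 1317 and 1237, and of 7 basophil and mast cell genes tested 2 were higher (Prss34 and Cpa3) and 1 lower (Hdc). With 1 library left out in turn the higher counts were 0 to 6 dendritic cell, 0 to 3 B cell and 0 to 5 basophil and mast cell genes. The mast cell tryptase Tpsb2 was at 0 in 4 of the 6 libraries and Mcpt4 at 0 in 3, while Tpsab1 was listed in none. No dendritic cell or B cell gene of these lists was at 0, and the part of any of these cells in the Kit difference was not tested.

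Flt3, unlike Kit, passed in T-ALL. It fell in T-ALL by 1.08 ± 0.20 (limma adjusted p = 0.0273; 0.0222 to 0.0678 over 12 alternatives, lost without normal Ly6cloF4/80lo or normal Ly6cloF4/80hi and with no filter), and 3 of 8 conventional dendritic cell genes fell while 0 rose, with Xcr1, Clec9a and Cd209a as the 3 (1 to 2 with 1 library left out in turn). Over all tested genes 3.94% passed as lower and 8.20% as higher. Kit was at 48.6 and 43.4 FPKM in the same 2 Ly6cloF4/80lo libraries in which Flt3 was at 86.5 and 46.1 and Mcpt8 at 7.43 and 106. The difference between the Kit and Flt3 changes was not tested.

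**Figure D4:**
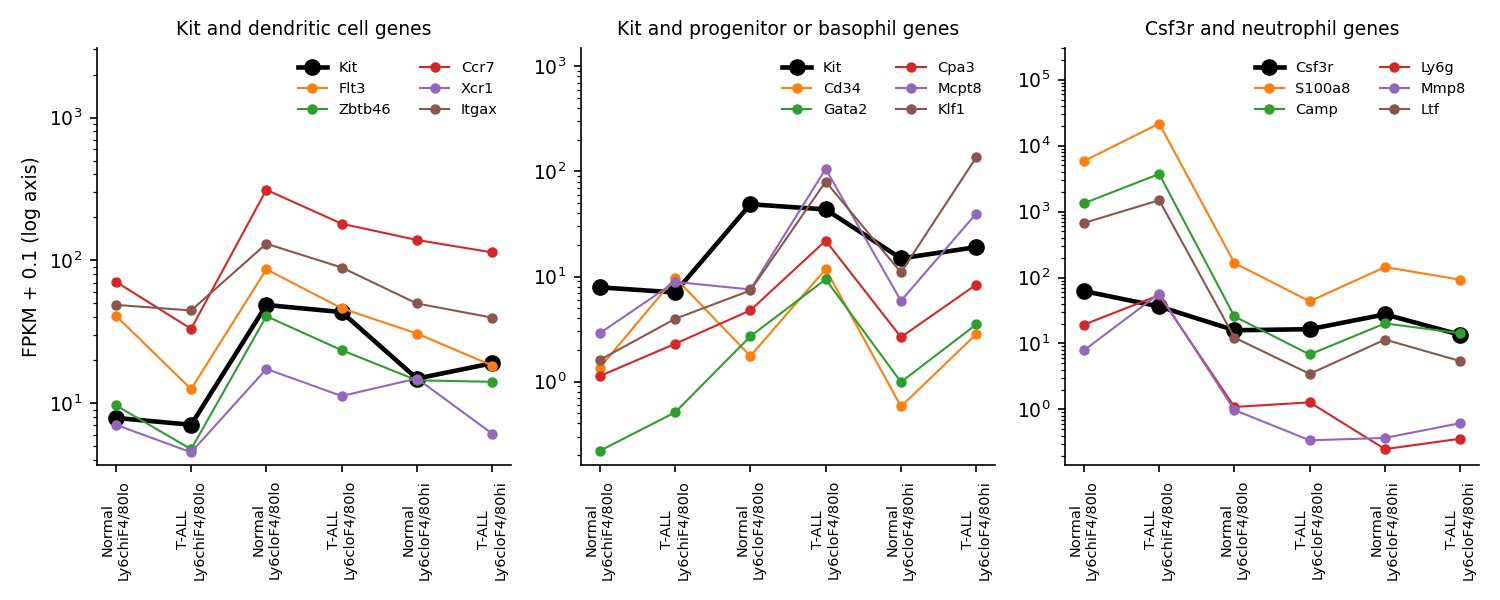
FPKM + 0.1 (log axis) in the 6 libraries for Kit with dendritic cell genes, Kit with progenitor, basophil and erythroid genes, and Csf3r with neutrophil genes, 1 point per library; lines only join the points of a gene. Kit is highest in both Ly6cloF4/80lo libraries as Zbtb46 and Ccr7 are, while Mcpt8 goes from 7.43 to 106 FPKM between them, and S100a8 reaches 21584 FPKM in T-ALL Ly6chiF4/80lo where Csf3r is at 36.3.

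The ligands of these receptors were at low levels in the sorted cells. Csf1 was at 1.10 to 2.19 FPKM, Csf2 at no more than 0.59, Il34 at no more than 0.13 and Il5 at no more than 0.10 FPKM, while Csf3 and Il3 were listed in none of the 6 files. Kitl was at 3.76 and 1.31 FPKM in the Ly6cloF4/80hi libraries and at 0.07 to 0.17 FPKM in the other 4. It passed the filter on low values only through these 2 libraries and drops out without either, so its difference is given with no test. Kit was at its highest levels in one Ly6clo gate and its ligand in the other. Only Csf1 and Kitl passed the filter, and neither differed between T-ALL and normal past the threshold (limma, 0 of 2, also 0 at an unadjusted p under 0.05).

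Among 7 related receptors tested, 3 fell in T-ALL and 0 rose, where 3.94% and 8.20% of all genes did. They were Flt3 and both chains of the IL-6 receptor, Il6ra with -0.99 ± 0.21 (limma adjusted p = 0.0367) and the shared chain Il6st with -0.83 ± 0.14 (0.0218). Il6ra was at 124, 62.2 and 60.8 FPKM in the normal subsets and at 48.9, 46.7 and 25.3 FPKM in T-ALL, so that all T-ALL values were below all normal ones. Each of the 2 IL-6 receptor calls was lost in 5 of 12 alternatives, both of them without any one of the 2 Ly6cloF4/80hi libraries (adjusted p up to 0.146 and 0.0855), and 0 to 2 related receptors fell with 1 library left out in turn. The IL-5 receptor alpha chain Il5ra, which pairs with Csf2rb, was at 6.50 to 14.7 FPKM and was not called in T-ALL.

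Of 21 signalling genes downstream of these receptors, such as the kinases Jak1 and Jak2, the transcription factors Stat5a and Stat5b, and the adaptors Grb2 and Gab2, 0 passed in T-ALL in either direction by limma, and 3 were lower and 0 higher at an unadjusted p under 0.05. Their median was -0.15. Between Ly6cloF4/80hi and Ly6chiF4/80lo, 3 of the 21 were lower (Pik3cg, Plcg2 and Fes) and 1 higher (Pik3r1), where 5.68% and 7.10% of all genes were. The higher count is near the share of all genes. Between Ly6cloF4/80lo and Ly6chiF4/80lo, 1 of the 21 was higher and 0 lower, where 2.68% and 2.05% of all genes were. This was Jak2, the kinase bound by the beta chains (14.6 and 9.93 against 5.54 and 5.25 FPKM, 1.03 ± 0.20, limma adjusted p = 0.0476). Pik3cg, Plcg2 and Pik3r1 lost the call in 3 or 4 and Fes in 10 of 13 alternatives, each without either Ly6cloF4/80hi library, and Jak2 lost it in 8 of 13, among them without any one of the 4 libraries compared.

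Feedback genes and targets gave few calls. Of 13 feedback genes past the filter, 1 was called lower in T-ALL, where 3.94% of all genes were. This was Sh2b3, an adaptor that damps Kit and cytokine receptor signalling, which fell by 0.61 ± 0.15 (limma adjusted p = 0.0482). Cish, a SOCS-family inhibitor induced by STAT5, was at 0.71, 0.84 and 0.71 FPKM in the normal subsets and 2.44, 2.54 and 4.71 in T-ALL. Cish passed the filter on low values only through the T-ALL libraries, so it is not counted as a call and no test of it is given. Of 12 STAT5 and growth targets 1 passed as higher and 0 as lower, where 8.20% and 3.94% of all genes did, a share near that of all genes. It was Bcl2l1, a survival gene, which rose from 13.1, 8.70 and 14.8 to 21.6, 15.9 and 31.0 FPKM (0.83 ± 0.14, limma adjusted p = 0.0223). All its T-ALL values were above all normal ones. Sh2b3 lost the call without any one of the 6 libraries, and Bcl2l1 lost it without either Ly6cloF4/80hi or either Ly6cloF4/80lo library. Between subsets, Ccnd1, the cyclin induced by growth factors, followed the order of Kit, at 76.8 and 53.3 FPKM in Ly6cloF4/80lo, 26.6 and 25.2 in Ly6cloF4/80hi and 12.6 and 7.13 in Ly6chiF4/80lo, and passed in all 3 comparisons (the one between the Ly6clo subsets was lost in 4 of 13 alternatives, the others in 0). Of the 12 targets, Ccnd1 and Myc were higher and Pim2 and Id1 lower in Ly6cloF4/80hi than in Ly6chiF4/80lo. Over all genes, 7.10% were higher and 5.68% lower. In Ly6cloF4/80lo against Ly6chiF4/80lo, Ccnd1 and Myc were higher and Id1 lower, where 2.68% and 2.05% of all genes were. There 8 of the 12 differences were negative. A link between Ccnd1 and Kit was not tested. Socs3, an inhibitor of G-CSF and IL-6 receptor signalling, was at 64.3 and 48.1 FPKM in Ly6chiF4/80lo and 8.54 and 19.9 in Ly6cloF4/80hi (-2.0 ± 0.37, limma adjusted p = 0.0211), a call lost without normal Ly6cloF4/80hi and with no filter.

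Of 14 transcription factors known to act on these receptor genes 1 rose in T-ALL and 0 fell, where 8.20% and 3.94% of all genes did, so the count is no result about these factors. The one that rose was Myb (1.48 ± 0.16, limma adjusted p = 0.00925, all T-ALL libraries above all normal ones). Spi1, which encodes PU.1, was at 469, 392 and 238 FPKM in the normal subsets and 408, 355 and 233 in T-ALL. It was not called in T-ALL. In Ly6cloF4/80hi it was lower than in Ly6chiF4/80lo (-0.89 ± 0.21, limma adjusted p = 0.0425). This call was lost without any one of the 4 libraries compared, under quantile normalization and with no filter. Of the 14 factors, 2 were lower there (Spi1 and Cebpe) and 2 higher (Gata1 and Mitf), where 5.68% and 7.10% of all genes were. Cebpe and Mitf passed the filter on low values only with the libraries in which they were high. Csf2ra, Csf2rb, Csf2rb2 and Csf3r were lower in that comparison, and Kit was higher. A link between Spi1 and the receptor levels was not tested. Cebpe, a factor of late granulocyte development, was at 18.4 and 55.7 FPKM in Ly6chiF4/80lo and at 0.54 to 2.26 in the other 4 libraries, so its state order in that gate was the reverse of that of Csf3r. Gata2, which acts on Kit, was at 2.60 and 9.31 FPKM in Ly6cloF4/80lo and 0.12 and 0.41 in Ly6chiF4/80lo. It would not have passed the filter without the Ly6cloF4/80lo libraries, so no test of it is given.

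Across the 6 libraries some receptors followed each other. Pearson's r of log2(FPKM + 1) was 0.964 for Csf2rb with Csf2rb2, which share sequence, 0.915 for Csf2ra with Csf3r and 0.838 for Csf1r with Il3ra, and -0.813 for Csf3r with Kit. Each r rests on 6 libraries that share subset and state, and is a description. Among 7727 genes of at least 10 FPKM in 1 library, the gene most like Csf1r was Gm5150 (r = 0.995), with Cyb5r1, Itgb5, Tmbim1 and Scarb2 next.

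Those most like Il3ra were Slc39a1 (r = 0.997), Ctsd, Cndp2, Lamp1 and Nr1h3. Ctsd, a lysosomal protease, was at 1570 and 887 FPKM in Ly6cloF4/80hi against 170 to 236 in the other 4 libraries. Kit was followed most closely by Lta (r = 0.998), then Ptger3, Ngrn, Usp11 and Matr3, and Lta, which encodes lymphotoxin alpha, was at 19.2 and 17.6 FPKM in Ly6cloF4/80lo and 3.84 to 10.0 elsewhere. For Csf2ra the nearest were Mtmr6 (r = 0.997), Abr, Gpr141, Ctdsp1 and Naip6, and for Csf3r Naip2 (r = 0.993), Atp2c1, Tmbim6, Tmem50a and Atg7. With 6 libraries many genes reach such values, for example 110 genes at r of 0.95 or more with Il3ra and 20 with Csf3r.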

How the data were processed

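RNA of sorted splenic macrophages was sequenced in 6 libraries (Illumina HiSeq, per the labels). FPKM per gene were deposited, made with Bowtie2 2.2.5 and RSEM, per the submitters' processing notes. Genome build, annotation and RSEM version: not given in the sources used here. Genes absent from a file counted as 0, and 16017 of 16058 identifiers (99.7%) received a symbol from RefSeq (GRCm38.p6). FPKM are not counts, so log2(FPKM + 1) was fitted with limma 3.58.1 (statmod 1.5.0, R 4.3.3; trended, robust prior) on subset and state. The fit took 11616 genes of at least 1 FPKM in at least 2 libraries and left 2 residual degrees of freedom. With the prior, which draws on all tested genes, the median total was 6.23. Tests are two-sided, Benjamini-Hochberg adjusted, and ± is the moderated SE. Scripts were tested on simulated data. Depth came from FPKM steps, with counting error only. Named genes were the 7 receptors, their ligands, the 5 most correlated genes per receptor and, in 22 other lists (4 of 199 listed symbols not found), genes that passed and up to 4 of at least 5 FPKM with the largest differences. Cd79a, Il5ra, S100a8 and Camp in T-ALL, Tpsb2, Mcpt4, Tpsab1 and the signalling genes given as examples were named after their values were seen. Members and lists were chosen with earlier results of these data known. Alternatives were other pseudocounts, filters, scalings and priors, fits of 4 libraries, and each library left out. Python 3.11.15 with pandas 2.3.3, Biopython 1.88 and matplotlib 3.10.9 did the rest.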

Additional observations from a re-analysis of the deposited data

Results flagged for a closer look

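The T-ALL difference pointed in opposite directions in different subsets for 4 of the 7 receptors. Each rests on 1 library per subset and state, and the difference between subsets was not tested. Csf1r was 0.23 in Ly6cloF4/80lo and -1.37 in Ly6cloF4/80hi (T-ALL minus normal, log2 scale), a gap of 1.61. Csf3r was 0.05 and -0.99 in the same 2 subsets, a gap of 1.03. Kit was 0.34 in Ly6cloF4/80hi and -0.16 in Ly6cloF4/80lo, a gap of 0.50. Il3ra was 0.02 in Ly6chiF4/80lo and -0.16 in Ly6cloF4/80hi, a gap of 0.18 in a gene whose counting error was 8.30% to 11.6% per library.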

How the results depend on the processing

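Of 7 receptors, 2 passed in T-ALL against normal, 5 in Ly6cloF4/80hi against Ly6chiF4/80lo, 2 in Ly6cloF4/80lo against Ly6chiF4/80lo and 1 between the Ly6clo subsets. With no filter on low values these were 0, 3, 1 and 0, and the counts over all genes went from 1410, 1485, 549 and 414 to 370, 867, 156 and 173. Without the trended and robust prior, 1 receptor passed in T-ALL and 1 in Ly6cloF4/80lo against Ly6chiF4/80lo. A fit of the 4 libraries of both Ly6clo subsets called 665 genes. Leaving out 1 library in turn gave 0 to 3, 1 to 6, 1 to 3 and 0 to 2 receptors and 318 to 1028, 621 to 1339, 79 to 756 and 127 to 665 genes; a fit with 1 library left out has fewer residual degrees of freedom and assumes that the lone library of its subset varies like the rest. After median-ratio rescaling 1 receptor, not 2, was past 2-fold in Ly6chiF4/80lo, and with a pseudocount of 0.1, median-ratio or quantile scaling 3, not 2, were in Ly6cloF4/80hi. The median of all genes, 0.12, 0.19 and -0.10 in the 3 subset comparisons, was 0.02, 0.01 and -0.01 under that rescaling. Of 28 calls of other genes named in the text, 7 passed in every alternative and 21 were lost in at least 1, 15 of them with no filter; these repeats were added after the data were seen.

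Signs changed only for differences that had not passed. In T-ALL, Kit was -0.00063 under median-ratio and -0.038 under quantile scaling and -0.15 to 0.098 with 1 library left out, and Il3ra was -0.071 to 0.020 with 1 left out (negative sign lost without either Ly6cloF4/80hi library). Between the Ly6clo subsets, Csf2ra was 0.022 under median-ratio scaling and -0.44 to 0.29 with 1 library left out (positive without T-ALL Ly6cloF4/80lo or T-ALL Ly6cloF4/80hi), and Csf3r was -0.21 to 0.71 (negative without normal Ly6cloF4/80lo or normal Ly6cloF4/80hi). Within Ly6cloF4/80lo, Il3ra was -0.0185 and -0.0209 under the median-ratio and quantile scalings and Csf3r was -0.0010 under quantile scaling. The cause was not tested. The T-ALL fit pairs the states by subset, since subset is a term in it; the labels give no replicate numbers, so no further block was fitted. With 1 library per cell of the design, no receptor has a replicate within a subset and state, and the counting error limits Il3ra and Csf2rb2 most.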
